A study of Mus musculus with 23 samples.

Results

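The comparison of early dox with no dox in cortex at rest drew on 12 of the 23 mice, namely the 4 mice labelled Dox and the 8 labelled Untreated, and on the 770 endogenous and housekeeping genes of the count table. Columns were matched to labels by mouse number, and no mouse among these 12 had been given LPS. All were WT siblings on an F1 FVBB6 background, from the cross of CaMKIIα-tTA;tetO-APP males with FVB/NJ females, and carried neither transgene. Dox mice had been fed chow with 100 mg/kg doxycycline (through the dam until weaning) from postnatal day 3 to 6 wk of age and then plain chow for 6 wk. Untreated mice had plain chow throughout life. Both groups were harvested at 12 wk, 18 h after a saline injection that the study's methods, but not the labels, describe. Of the Dox mice 1 was male and 3 were female, and of the Untreated mice 6 were male and 2 female. The 11 other mice received 2 mg/kg LPS, 6 of them after the same dox course (Dox+LPS) and 5 without it (LPS).

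Dox is a tetracycline antibiotic that also silences tet-off transgenes, and mice bred for such transgenes are often raised on it. It enters the brain and also acts on gut bacteria. The panel covers genes of resting cortex. Microglia, the resident macrophages of the brain, keep a homeostatic gene program when undisturbed. Astrocytes and endothelium hold the barrier to blood, and many, but not all, complement, interferon and cytokine genes stay low until a stimulus arrives. The question was how large a dox effect on each gene and family these mice could still hide.

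Dox and Untreated mice ran on 1 cartridge, with Dox mice in lanes 9 to 12 and Untreated mice in lanes 1 to 8, so lane position and dox cannot be told apart. Panel counts per mouse were 671189 to 740232 in Dox mice and 645971 to 775723 in Untreated mice, and 609 to 642 genes of a Dox mouse and 622 to 652 of an Untreated mouse exceeded background. No difference was detected in 7 such measures (lowest exact permutation p = 0.178, two-sided, for the housekeeping mean, where the design could reach 0.00202). The housekeeping mean was 0.07 log2 units higher in Dox mice, and the test does not bound that difference. All 19 markers of cortical neurons, astrocytes, oligodendrocytes, microglia and endothelium on the panel exceeded background in all 12 mice, as the cortical label requires. In these bulk samples fewer cells of a type and less RNA per cell cannot be told apart. In the Untreated group, replicates 6, 7 and 8 carry mouse numbers of another series than the other 9 mice, and replicate 3 had high counts of Lcn2 and other inflammatory genes. Values without them stand beside some of the results that they moved. Pairs of mice differed by a median root mean square of 0.38 log2 units for Dox with Untreated (32 pairs), 0.38 within Dox (6 pairs) and 0.37 within Untreated (28 pairs).

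No gene met the call rule, which asks for a log2 fold change past 0.5 in either direction with an adjusted p below 0.05 (0 of 770, 0%), in edgeR's quasi-likelihood test. The lowest adjusted p was 0.268, for Bnip3. At an unadjusted p under 0.05 there were 41 genes (5.32% of all tested), 25 higher in Dox (3.25%) and 16 lower (2.08%). DESeq2 and limma-voom also called no gene under the same rule, with 37 and 46 genes at an unadjusted p under 0.05. In the same fit LPS against Untreated, which spans both cartridges and shares the Untreated mice, had 175 called genes (22.7%).

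A missed threshold does not bound an effect, so each gene was placed by its 95% interval. A gene was bounded when its interval for Dox over Untreated lay wholly within 0.5 log2 units of 0, that is between 0.707-fold and 1.41-fold, and it exceeded background in at least 6 of the 12 mice. It was uncertain when it exceeded background that often but its interval passed 0.5. The remaining genes were under background. C3 and Lcn2 exceeded background in 6 of the 12 mice, Eomes, Uty and Kdm5d in 7, and Cd14, Lilrb4a and Osgin1 in 8. Part of the counts given for these genes therefore lay under background. On this scale 551 genes were bounded (71.6%), 86 uncertain (11.2%) and 133 under background (17.3%). Of the 637 genes measured above background, 294 were held within 0.25 log2 units, 627 within 1, and 10 could differ by more than 1. Their estimates had a median of 0.01 and ran from -0.19 at the 5th percentile to 0.17 at the 95th. The median interval extended 0.19 log2 units to either side of its estimate.

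**Figure D1:**
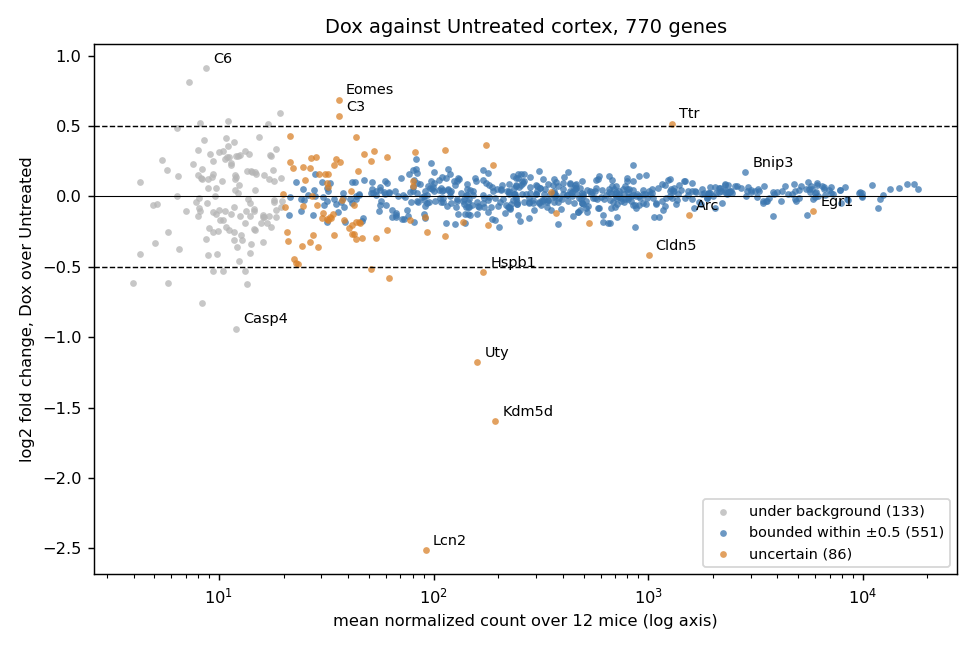
Mean normalized count over the 12 mice (log axis) against the log2 fold change of Dox over Untreated for 770 genes, 1 point per gene, with dashed lines at the margin of 0.5. The 551 bounded genes (blue) lie near 0 over the whole range of levels, the 86 uncertain genes (orange) lie mostly at low counts, and the 133 genes under background are grey.

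Certainty followed the level of the gene. Measured genes were ordered by mean normalized count and divided into 4 sets. In the lowest set of 160 genes, with means of 20.0 to 91.0, 93 were bounded and the median interval extended 0.35 log2 units to either side. In the next 3 sets of 159 genes each, 147, 156 and 155 were bounded, with median extents of 0.22, 0.15 and 0.10. Of the 86 uncertain genes 67 came from the lowest set. Only 4 genes of the highest set, all with means above 968, were uncertain: Cldn5, Ttr, Arc and Egr1. Those in the set below were Fos, Ifitm3 and Cdkn1a.

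All 36 neuronal and synaptic genes were bounded. Their intervals extended a median of 0.11 log2 units to either side, against 0.19 over all measured genes. The list had a median log2 fold change of 0.01 and estimates from -0.18 to 0.22. Ppp3ca, a catalytic subunit of calcineurin, had 18005, 18783, 18075 and 17235 normalized counts in Dox mice. Untreated mice had 15839 to 18138 (median 16858). The groups overlapped, and the log2 fold change was 0.08 (95% interval 0.01 to 0.16, adjusted p = 0.811). Slc17a6, the vesicular glutamate transporter of thalamic and other subcortical neurons, was the widest of the list, with 1013, 672, 1004 and 1057 counts in Dox mice, against 655 to 1035 (median 775) in Untreated mice. Its interval, -0.04 to 0.49, ended just inside the margin. With sex as a covariate the Slc17a6 interval was -0.03 to 0.54, and 35 of the 36 genes were bounded.

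All 16 homeostatic microglia genes were bounded in the main fit, with a median of 0.01 and a median extent of 0.23 to either side. The count of 16 was 14 with sex as a covariate, 14 in females alone and 13 without the Untreated mice of another number series. With each mouse left out in turn that count ran from 13 to 16. The marker receptors P2ry12, Tmem119, Cx3cr1 and Gpr34 had estimates of 0.06, -0.03, 0.00 and 0.01, with intervals inside -0.31 and 0.31. Slc2a5, a fructose transporter of microglia, came nearest to the margin, at 0.17 (interval -0.16 to 0.50). Csf1r, the receptor that keeps microglia alive, averaged 884 ± 50.2 in Dox mice and 922 ± 80.0 in Untreated mice (SD, n = 4 and 8), a difference of -0.06 (interval -0.27 to 0.15). Of 31 myelin and oligodendrocyte genes 30 were bounded. The exception was Enpp6, an enzyme of newly formed oligodendrocytes, at 0.31 (interval 0.02 to 0.60). Of 13 astrocyte identity genes 12 were bounded, among them the glutamate transporter Slc1a3 at 0.04 (interval -0.03 to 0.12). Agt, angiotensinogen, was not: Dox mice had 191, 119, 278 and 252 counts and Untreated mice 130 to 235 (median 183), so Dox mice held both the lowest and the highest values, and the interval was -0.22 to 0.66.

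**Figure D2:**
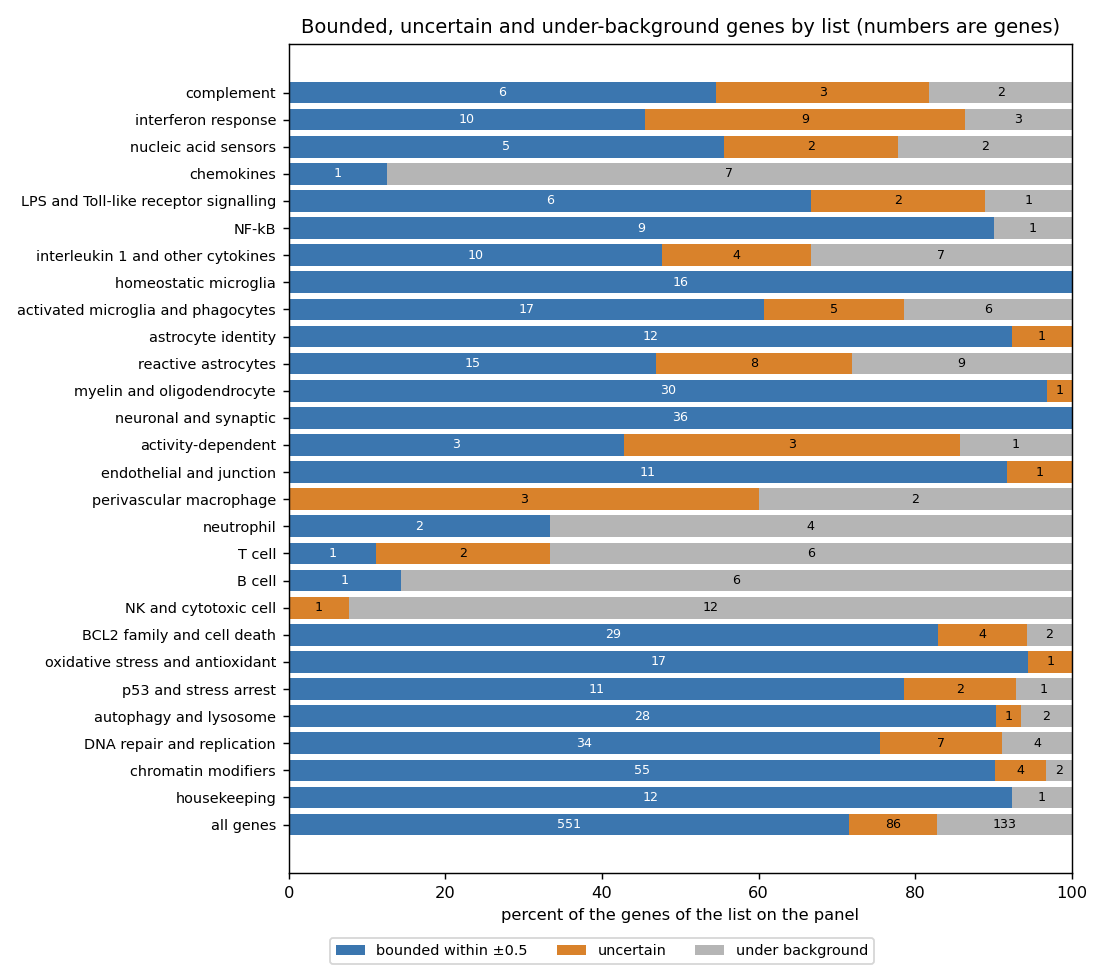
Percent of the genes of each list on the panel that were bounded within 0.5 log2 units, uncertain, or under background in Dox against Untreated cortex, with the number of genes in each bar. In the main fit, which is the one drawn, neuronal and homeostatic microglia lists are wholly bounded, whereas most chemokine and blood cell genes are under background.

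All 9 measured NF-kB genes were bounded, with Nfkb2, a precursor of the noncanonical dimer, the nearest to the margin at 0.16 (interval -0.17 to 0.49). The count was 8 with sex as a covariate, 7 without Untreated replicates 6, 7 and 8, and 5 in females alone. With 1 mouse left out in turn it ran from 6 to 9. Chuk, a kinase of the inhibitor of NF-kB, had 616, 656, 600 and 552 counts in Dox mice, against 548 to 897 (median 637) in Untreated mice. The 3 highest counts of Chuk were those of Untreated replicates 6, 7 and 8, and the estimate of -0.19 (interval -0.43 to 0.04) was 0.02 (interval -0.16 to 0.19) without these 3 mice. With sex as a covariate the Chuk estimate was -0.26 (interval -0.50 to -0.02). Of 8 measured Toll-like receptor genes 6 were bounded, including the LPS receptor Tlr4 and the adaptor Myd88. Cd14, the co-receptor of Tlr4, was uncertain on both sides, with 27.1 ± 7.82 counts in Dox mice and 27.0 ± 10.3 in Untreated mice (SD, n = 4 and 8) and an interval of -0.56 to 0.56. Of 14 measured cytokine pathway genes 10 were bounded, but the cytokines Il1a, Il1b and Tnf were themselves under background. Only 1 of 8 chemokines was measured, Cx3cl1, the neuronal ligand of the microglial receptor Cx3cr1, and it was bounded (1587 ± 226 in Dox mice and 1609 ± 147 in Untreated mice; SD, n = 4 and 8). Ccl2, Ccl3, Ccl4, Ccl5, Ccl7, Cxcl9 and Cxcl10 were under background, so for these genes the counts bound the level and not the fold change.

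Of 9 measured complement genes 6 were bounded and 3 uncertain (C3, C5ar1 and Serping1). The bounded genes were the 3 chains of C1q, C4a, which has a near-identical copy in C4b, the receptor gene C3ar1 and the receptor subunit gene Itgam. C1qa, C1qb and C1qc, the chains of the initiating complex, had estimates of -0.03, -0.04 and -0.05. C1qb counts were 1024, 1059, 997 and 1160 in Dox mice, against 917 to 1565 (median 1020) in Untreated mice. C3, the hub of the cascade, had 74.6, 52.3, 9.26 and 50.1 counts in Dox mice, against 14.9 to 117 (median 19.1) in Untreated mice. Dox replicate 3 was the lowest of all 12 mice and the other 3 Dox mice exceeded 7 of the 8 Untreated mice. The C3 estimate of 0.57 had an interval of -0.65 to 1.79 (adjusted p = 0.980). Without Untreated replicate 6, which held the value of 117, it was 1.29 (interval 0.24 to 2.34, adjusted p = 0.934), and without Dox replicate 1 it was 0.25 (interval -1.14 to 1.64). Serping1, the C1 inhibitor, was at 0.33 (interval -0.02 to 0.69). The count of 6 bounded complement genes was 5 with sex as a covariate and 4 without Untreated replicates 6, 7 and 8.

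Of 19 measured interferon response genes 10 were bounded and 9 uncertain. The receptor chains Ifnar1 and Ifnar2 were bounded, at -0.02 and 0.02. Among the uncertain genes were Rsad2, an antiviral enzyme, at 0.04 (interval -0.64 to 0.72), Gbp2, a guanylate-binding protein, at -0.06 (interval -0.95 to 0.83), and Irf7, the master factor of the response, at -0.17 (interval -0.74 to 0.41). With the 12 mice fitted alone, the Rsad2 interval was -0.39 to 0.47 and the Gbp2 interval -0.43 to 0.31, both within 0.5. Irf7 counts were 31.6, 27.7, 32.9 and 27.7 in Dox mice, against 21.7 to 68.0 (median 29.6) in Untreated mice. The 4 Dox mice lay within the Untreated range. The highest value was that of Untreated replicate 3, and without it the Irf7 estimate was 0.07 (interval -0.41 to 0.54) and 12 of the 19 genes were bounded.

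Among activated microglia and phagocyte genes 17 of 22 measured members were bounded, with Apoe, a lipid carrier raised in disease-associated microglia, at 0.07 (8544 ± 330 in Dox mice and 8142 ± 318 in Untreated mice; SD, n = 4 and 8). The uncertain members were Spp1 (osteopontin), Cd36 (a scavenger receptor), Fcgr1 (an IgG receptor), Ptprc (CD45) and Lilrb4a, an inhibitory receptor with 10.2, 23.5, 19.6 and 20.3 counts in Dox mice and 14.01 to 38.9 (median 23.9) in Untreated mice. Clec7a, Cst7 and Itgax, other genes of that state, were under background. Of 23 measured reactive astrocyte genes 15 were bounded, with the intermediate filament gene Vim and the protease inhibitor gene Serpina3n both at -0.05. The count of 15 fell to 8 without Dox replicate 4 and to 10 without Untreated replicates 6, 7 and 8, and it was 11 with sex as a covariate, without Dox replicate 1 and without Dox replicate 3.

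Lcn2, lipocalin 2, a secreted iron-scavenging protein of inflamed astrocytes and endothelium, had the widest interval of all genes. Its counts were 30.5, 19.2, 11.3 and 29.9 in Dox mice, against 13.6 to 733 (median 25.3) in Untreated mice. Untreated replicate 3 held the 733 and the next Untreated value was 128, and the Dox values overlapped those of the other 7 Untreated mice. The estimate was -2.51 (interval -4.83 to -0.20, adjusted p = 0.811), and without Untreated replicate 3 it was -0.82 (interval -2.07 to 0.44). With sex as a covariate the Lcn2 estimate was -2.13 (interval -4.46 to 0.19). In females alone its sign turned, at 0.38 (interval -0.36 to 1.13). Hspb1, the small heat shock protein Hsp27, had 146, 132, 130 and 115 counts in Dox mice, against 119 to 304 (median 161) in Untreated mice, at -0.54 (interval -0.95 to -0.13, adjusted p = 0.811). Among females alone it was -0.15 (interval -0.47 to 0.17).

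Of 6 measured activity-dependent genes 3 were bounded, Bdnf, Jun and Crem, and 3 were uncertain, Arc, Fos and Egr1. Arc, a synaptic immediate early gene, had 946, 1939, 1504 and 1404 counts in Dox mice, against 741 to 2730 (median 1592) in Untreated mice. Its interval was -0.93 to 0.66. Fos and Egr1, immediate early transcription factors, had intervals of -1.10 to 0.72 and -0.67 to 0.46. All 6 measured members had estimates below 0 (median -0.12), and Dox replicate 1 was the lowest of the Dox mice for Arc, Fos and Egr1. Without that mouse the estimates of these 3 genes were 0.02, 0.05 and 0.01. Untreated replicates 6, 7 and 8 had the 3 highest mean levels of the list. Without them the estimates were 0.28 for Arc (interval -0.56 to 1.13), 0.10 for Fos (interval -0.95 to 1.15) and 0.16 for Egr1 (interval -0.46 to 0.78), and 3 of the 6 members lay below 0 (median 0.04). Bdnf, a neurotrophin, was bounded at -0.19 (interval -0.49 to 0.10), and the transcription factor genes Jun and Crem at -0.02 (interval -0.19 to 0.14) and -0.06 (interval -0.25 to 0.13).

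Of 12 endothelial and junction genes 11 were bounded. The exception was Cldn5, the claudin that seals the junctions of brain endothelium, with 798, 762, 818 and 902 counts in Dox mice, against 889 to 1466 (median 1057) in Untreated mice. Dox replicate 4 exceeded 2 Untreated mice and the other 3 Dox mice lay below all 8. The estimate was -0.42 (interval -0.67 to -0.16, adjusted p = 0.811). It was -0.40 (interval -0.57 to -0.24, adjusted p = 0.121) in females alone and -0.35 (interval -0.58 to -0.11) without Untreated replicate 3, which had the highest count. Other endothelial genes had estimates nearer 0: Esam -0.03 (interval -0.19 to 0.14), Pecam1 -0.06 and Flt1 -0.11 (interval -0.41 to 0.18). Ly6a, an endothelial surface antigen, was bounded only narrowly, at -0.14 (interval -0.49 to 0.21).

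Markers of blood-derived and border cells could hardly be compared. Of 9 T cell genes 3 were measured, of 7 B cell genes 1, of 13 NK and cytotoxic cell genes 1, of 6 neutrophil genes 2 and of 5 perivascular macrophage genes 3. The defining T cell genes Cd3e, Cd3d and Cd3g, the B cell gene Ms4a1 and the neutrophil gene Ly6g were all under background. Eomes, a factor of cytotoxic lymphocytes and of neuronal progenitors, had 91.5, 29.9, 8.23 and 65.0 counts in Dox mice, against 9.71 to 62.2 (median 22.97) in Untreated mice, at 0.69 (interval -0.29 to 1.66). The Eomes estimate was 0.19 without Dox replicate 1 and 1.05 without Dox replicate 3 (intervals -0.89 to 1.27 and 0.13 to 1.97). Cd6, a T cell receptor that binds ALCAM, had 37.3, 70.4, 62.8 and 38.4 counts in Dox mice and 34.0 to 46.7 (median 38.6) in Untreated mice. Cd6 was at 0.42 (interval 0.09 to 0.76, adjusted p = 0.811), with Dox replicates 2 and 3 above all Untreated mice. Without Dox replicate 2 it was 0.25 (interval -0.10 to 0.60), and with sex as a covariate 0.28 (interval -0.05 to 0.61). Cd74, the invariant chain of class II presentation, had an interval of -0.85 to 0.45, and Untreated replicate 3, at 510 counts, stood above the 215 of the highest Dox mouse. Without it the estimate was 0.21 (interval -0.17 to 0.59).

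Families of cell stress and maintenance were mostly bounded. These were 28 of 29 measured autophagy and lysosome genes (median 0.03), 17 of 18 oxidative stress genes (median 0.05), 29 of 33 BCL2 family and cell death genes (median 0.04), 11 of 13 p53 and stress arrest genes (median 0.05), 34 of 41 DNA repair and replication genes (median -0.02) and 55 of 59 chromatin modifiers (median -0.01). In the same order, the bounded counts were 28, 17, 24, 9, 31 and 54 without Untreated replicates 6, 7 and 8. Sod2, the mitochondrial superoxide dismutase, was at 0.04 (interval -0.03 to 0.11) and Ehmt2, a histone H3 lysine methyltransferase, at -0.01 (interval -0.08 to 0.06). Cdkn1a, the p53-induced cell cycle inhibitor, was uncertain by a small amount, at 0.03 (interval -0.45 to 0.51). Its interval was -0.30 to 0.36 with the 12 mice fitted alone. The uncertain repair and replication genes included Mcm2, Cdc7, Top2a, Chek2 and Dna2, while Mcm5, Mcm6, Pcna, Rad50, Nbn and Atm were bounded. Hells, a chromatin remodeller, had 39.6, 33.1, 53.5 and 32.0 counts in Dox mice, against 38.2 to 74.3 (median 53.7) in Untreated mice, at -0.52 (interval -0.92 to -0.11), and -0.41 (interval -0.84 to 0.03) without Untreated replicates 6, 7 and 8. Osgin1, a target of the oxidant sensor Nrf2, had 12.4, 20.3, 13.4 and 26.7 counts in Dox mice and 18.4 to 30.8 (median 25.6) in Untreated mice, at -0.48 (interval -0.84 to -0.11). Osgin1 exceeded background in only 8 of the 12 mice. Its interval rests partly on counts under background, most of them in Dox mice. Without Dox replicate 1 the Osgin1 estimate was -0.34 (interval -0.71 to 0.04) and without Dox replicate 4 it was -0.72 (interval -1.10 to -0.34).

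Bnip3, a mitochondrial protein of mitophagy and cell death, had the smallest p. It had 2977, 3093, 3076 and 3088 counts in Dox mice, against 2526 to 2843 (median 2718) in Untreated mice, and the groups did not overlap. The estimate was 0.17 (interval 0.09 to 0.26, adjusted p = 0.268), so Bnip3 was both bounded and placed above 0 by its interval. It was 0.19 in females alone (interval 0.07 to 0.30) and 0.20 with sex as a covariate (adjusted p = 0.0789), and DESeq2 gave an adjusted p of 0.0445 for the same size. The groups also did not overlap for Abcc8, a subunit of the ATP-sensitive potassium channel, higher in Dox mice at 0.19 (interval 0.02 to 0.37), and Gna15, a G protein subunit, lower at -0.27 (interval -0.66 to 0.13), which makes 3 such genes of 770 (0.39%). Abcc8 and Gna15 are named here because of their values.

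The other bounded genes with the smallest p were as small in size. Vps4a, an ATPase that disassembles membrane-scission complexes, was at 0.11 (interval 0.04 to 0.19), and Hat1, a histone acetyltransferase, at 0.13 (interval 0.03 to 0.22) (each with an adjusted p of 0.811). Of the 41 genes at an unadjusted p under 0.05, 28 were bounded, 9 uncertain and 4 under background.

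**Figure D3:**
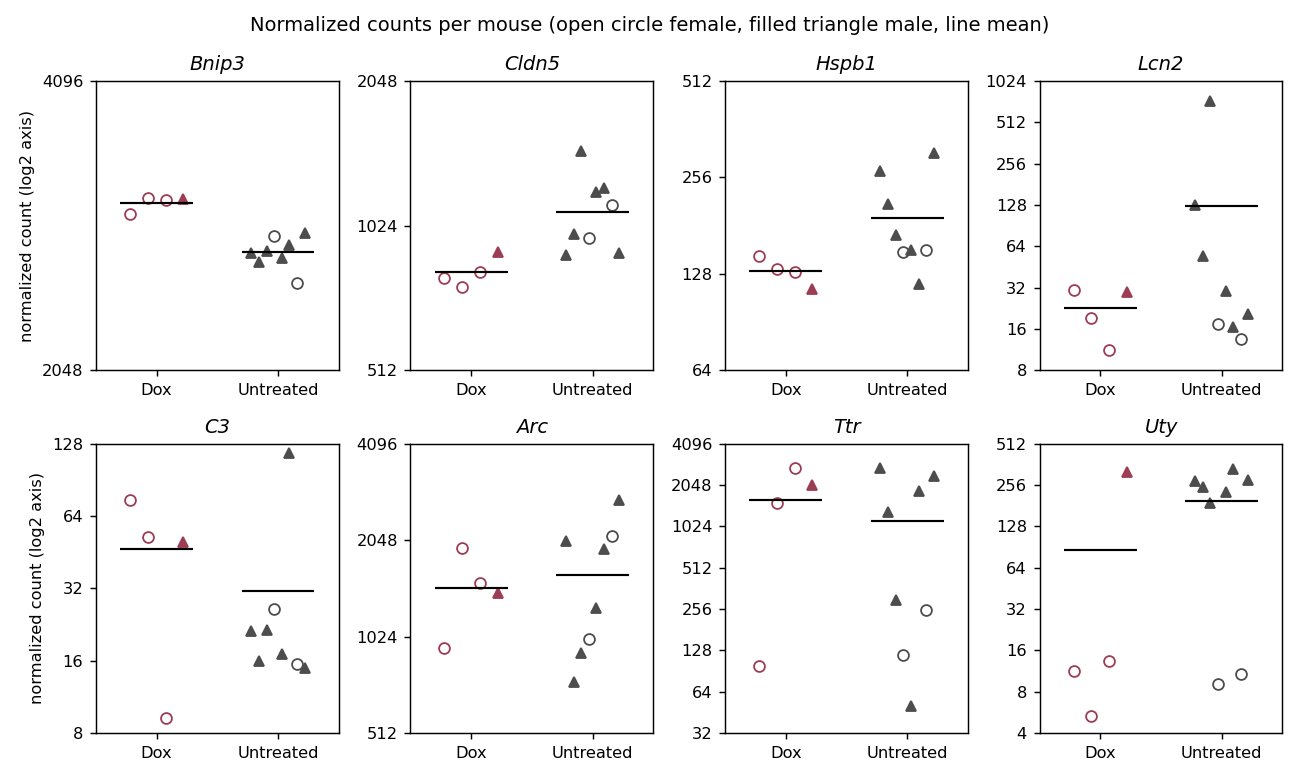
Normalized counts (log2 axis) of 8 genes in each of 4 Dox and 8 Untreated mice, with open circles for females, filled triangles for males and a line at the group mean. Bnip3 does not overlap between groups, the Lcn2 mean of Untreated mice is carried by 1 mouse at 733 counts, and Uty separates by sex.

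The narrowest and widest intervals mark the limits of the data. Ppp3cb, Rac1, Map2k1, Atp6v1a, Ehmt2 and Sod2 had the narrowest intervals among genes above background in all 12 mice, and all 6 stayed within 0.14 log2 units of 0. The 8 widest of that kind were Ttr, Fos, Gbp2, Arc, Tnfrsf25, Rsad2, Cd74 and Irf7. With the 12 mice fitted alone, the intervals of Gbp2 and Rsad2 lay inside the margin. Those of Fos, Arc and Irf7 were also narrower there, and those of Ttr, Tnfrsf25 and Cd74 wider. Ttr, transthyretin, made by choroid plexus, had 98.3, 1525, 2746 and 2049 counts in Dox mice. Untreated mice had 50.0 to 2731 (median 802), so both groups spanned nearly the same range (interval -1.29 to 2.32). With sex as a covariate the Ttr estimate was 1.23 (interval -0.63 to 3.08). In females alone, 3 Dox and 2 Untreated mice, it was 2.98 (interval 0.57 to 5.39). Tnfrsf25, a death receptor, had 32.8, 65.1, 57.6 and 29.9 counts in Dox mice and 26.6 to 145 (median 63.5) in Untreated mice. Its estimate was -0.58 (interval -1.30 to 0.13). The 3 highest counts were those of Untreated replicates 6, 7 and 8, and without these mice the Tnfrsf25 interval was -0.62 to 0.62 around an estimate of 0.00.

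**Figure D4:**
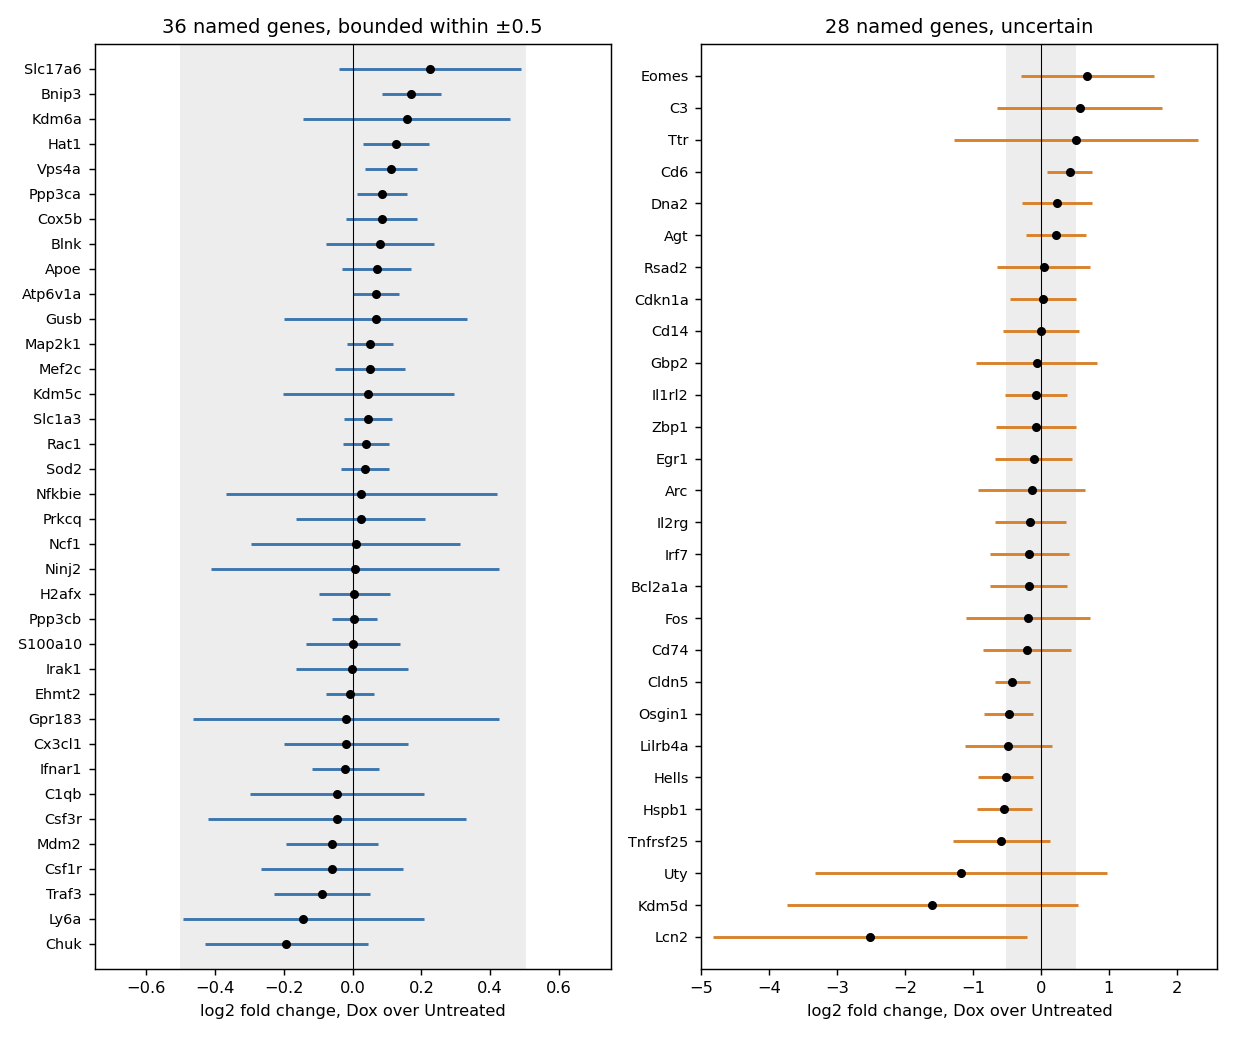
Log2 fold change of Dox over Untreated (points) with 95% intervals (lines) for 36 named bounded genes and 28 named uncertain genes, with the zone within 0.5 shaded and a wider axis on the right. The bounded genes run from -0.19 for Chuk to 0.22 for Slc17a6, and the widest uncertain intervals are those of Lcn2, Uty and Kdm5d.

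The Y-linked genes Uty and Kdm5d followed sex, which was unequal between the groups. Uty had 317 counts in the male Dox mouse and 5.33 to 13.4 in the 3 females of that group. Untreated males had 188 to 337 and Untreated females 9.13 and 10.7. The Dox estimates for Uty and Kdm5d were -1.18 and -1.60, and 0.20 (interval -0.19 to 0.58) and -0.10 (interval -0.48 to 0.28) with sex as a covariate. Kdm6a and Kdm5c, their X-linked relatives, were bounded at 0.16 and 0.05. With sex as a covariate Kdm6a was at -0.06 (interval -0.27 to 0.16) and Kdm5c at -0.13 (interval -0.27 to 0.00, with its upper end below 0), so the sign of both turned.

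Of the 86 uncertain genes 30 had intervals reaching past 0.5 upward only, 45 downward only and 11 both ways. In 75 of them the interval included 0, and in 77 the estimate itself lay within 0.5. Among the 133 genes under background, 84 exceeded it in no mouse and 49 in 1 to 5 mice. No gene under background exceeded it in all 4 Dox mice. Slfn8, an interferon-induced gene, did so in 3 Dox and 2 Untreated mice (24.99 and 16.5 counts on average), and Birc5 and Gpr84 in no Dox mouse and 5 and 4 Untreated mice.

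Taken by mouse, the mean level of each list overlapped between Dox and Untreated mice in all 27 lists. Interferon response means were -0.06 to -0.01 in Dox mice, relative to the Untreated mean, and -0.13 to 0.34 in Untreated mice. Untreated replicate 3 had the highest mean of its group in 11 lists, among them complement, interferon response, reactive astrocytes, activated microglia and endothelial genes. Without it 545 genes were bounded, and without Untreated replicates 6, 7 and 8, 512. Among the genes named above, Bdnf, Slc17a6, C4a and Itgam became uncertain without replicate 3 while Fcgr1, Ifitm3 and C5ar1 became bounded. Without replicates 6, 7 and 8, Ly6a, Nfkb2, Slc2a5, Kdm6a, C4a, Itgam and Mcm6 became uncertain while Cdc7 and Ptprc became bounded. Under 4 other scalings the median of all measured genes lay between -0.06 and 0.06, and the median kept its sign in 5 of 27 lists, so no direction is given for the others. Activity-dependent genes kept theirs under the scalings (-0.20 to -0.09), but the median was 0.01 with sex as a covariate and 0.04 without Untreated replicates 6, 7 and 8.

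**Figure D5:**
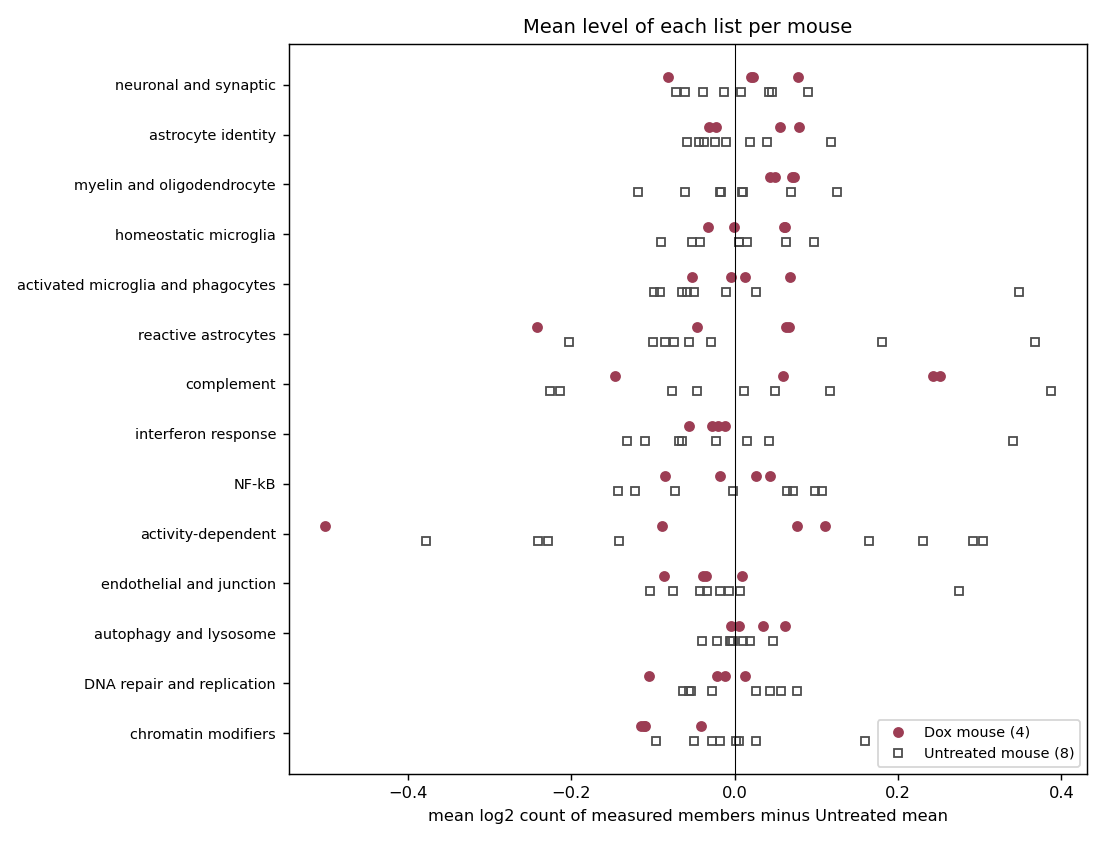
Mean log2 count of the measured members of 14 lists in each of 4 Dox mice (filled circles) and 8 Untreated mice (open squares), relative to the Untreated mean. The groups overlap in every list shown, and Untreated replicate 3 is the square farthest to the right for interferon response, at 0.34.

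Dox+LPS and LPS mice offered a second, separate comparison by dox, after LPS and on the other cartridge, where Dox+LPS mice again had the higher lanes (7 to 12, LPS mice 1 to 6). No gene was called there (0 of 770, 0%), and 102 had an unadjusted p under 0.05 (13.2%). Of the 41 genes at that level in Dox against Untreated, 21 had the same sign in Dox+LPS against LPS, beside 352 of all 770 genes. Of the 41, 8 reached an unadjusted p under 0.05 there. Among these 8 only Lyn, a Src family kinase, kept its direction (0.24 without LPS and 0.28 with it). The others turned, among them Hspb1 (-0.54 without LPS and 0.42 with it), Hat1 (0.13 and -0.12) and Ppp3ca (0.08 and -0.10). Bnip3 was at 0.00 (interval -0.08 to 0.09) and Cldn5 at -0.16 (interval -0.41 to 0.09) in Dox+LPS against LPS. C3 was at 1.04 (interval 0.09 to 1.99, adjusted p = 0.333). The test of the difference between the dox effects with and without LPS gave no gene at an adjusted p under 0.05, with 69 of 770 at an unadjusted p under 0.05. Of these, 19 were among the 41. The 41 were selected on a contrast that this test contains, so the 19 are not a separate result. Of the 551 bounded genes, 500 were bounded in Dox+LPS against LPS as well.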

How the data were processed

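RNA from cortex was hybridized to the nCounter Mouse Neuroinflammation panel, whose barcoded probes are tallied without amplification. The panel has 784 probes: 757 endogenous, 13 housekeeping, 6 positive and 8 negative control probes. The authors deposited the exported barcode counts, which are whole tallies for every probe and not estimated counts, and named edgeR 3.38.4. Their deposited normalized table was not used, because its values are fitted by a model. 1 column matched no mouse and was left out. Intervals were wider for genes of lower count.

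Upper quartile scaling was applied to the counts of 770 genes, which were fitted with edgeR 4.0.16 (quasi-likelihood test, R 4.3.3) with group means over all 23 mice. Adjusted p is Benjamini-Hochberg over 770 genes. The 95% intervals use the standard error of the fitted contrast and its t distribution. Normalized counts are counts divided by each mouse's scale factor, which averages near 1. Background in a mouse was the mean plus 2 SD of its negative probes. The scripts were tested on simulated data. The study's methods used the likelihood ratio test with RUVg factors, which were alternatives here beside limma 3.58.1 and DESeq2 1.42.0. Exact permutation tests over mice enumerated 495 regroupings (scipy 1.17.1).

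Named genes were the 10 with the smallest p among measured genes, the 8 widest and 6 narrowest intervals, the most abundant and the widest measured member of each of 27 lists, and Lcn2, Uty, Kdm5d, Kdm6a and Kdm5c. A few genes that the rule picks are not reported here. Other genes named as members of a list stand beside its count. The question, lists and rule were chosen with earlier results of these data known.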

Additional observations from a re-analysis of the deposited data

Results flagged for a closer look

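Among 134 groups of values (67 named genes in 2 groups of mice), 11 held a mouse standing apart from the rest of its group by Dixon's criterion. By chance the criterion flags about 1 in 20 groups when genes are chosen without regard to their values. Many of these genes were picked for wide intervals in the same values, so the 11 cannot be set against that share. Untreated replicate 3 accounted for 6 of the 11, each on the high side. It had 733 normalized counts of Lcn2 (13.6 to 128 in the other 7 Untreated mice), 510 of Cd74 (99.4 to 186), 1565 of C1qb (917 to 1192), 1284 of Ly6a (483 to 862), 68.0 of Irf7 (21.7 to 34.0) and 54.4 of Il2rg (23.01 to 35.5). Untreated replicate 6 had 117 counts of C3, against 14.9 to 26.4 in the other 7. In the Dox group, replicate 1 had 2977 counts of Bnip3, against 3076 to 3093 in the other 3 mice, and replicate 2 had 672 of Slc17a6, against 1004 to 1057. The male Dox mouse, replicate 4, stood apart for the Y-linked genes, with 317 counts of Uty (5.33 to 13.4 in the 3 females) and 285 of Kdm5d (10.2 to 18.1).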

How the results depend on the processing

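No gene was called under any alternative at the full rule. At an adjusted p alone, the main test had none and 1 of 29 other fits, DESeq2, had a gene (Bnip3). The main counts of 551 bounded, 86 uncertain and 41 genes at an unadjusted p under 0.05 moved by more than 1.5 times as follows. Males only gave 325 bounded and 312 uncertain genes, with 1 male Dox mouse whose spread was taken to equal that of the other groups. Females only gave 176 uncertain genes, and 461 bounded. Subtraction of the negative control mean gave 139 uncertain genes. A margin of 0.25 gave 294 bounded and 343 uncertain genes, and a margin of 1 left 10 uncertain. Requiring a level above background in all 12 mice, which leaves fewer genes, gave 54 uncertain. The likelihood ratio test had 26 genes at an unadjusted p under 0.05, and the cause was not tested. With each mouse left out in turn, bounded genes ranged from 516 to 545, uncertain genes from 92 to 121 and genes at an unadjusted p under 0.05 from 27 (without Dox replicate 3) to 61 (without Untreated replicate 4), with 0 called in each. Without the 3 Untreated mice whose numbers belong to another series 512 were bounded, and with sex as a covariate 530 (524 over the 12 mice alone, an alternative chosen after seeing the data). The 12 mice without LPS, fitted alone, gave 558 bounded and 79 uncertain genes. Over the 27 fits that keep both sexes, 462 of the 551 bounded genes stayed bounded and 46 of the 86 uncertain genes stayed uncertain. Of the 39 named bounded genes 24 were bounded in all 29 fits, and Ly6a and Gpr183, whose intervals end near 0.5, lost it in 18 and 13. No paired analysis was possible because replicate numbers only name the mice and the labels pair none of them.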
